A study of Mus musculus with 6 samples.

Results

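The genes described here are the major histocompatibility complex (MHC) class II and antigen presentation genes H2-Aa, H2-Ab1, H2-Eb1, H2-DMa, H2-DMb1, Cd74, Ciita, B2m, Tap1 and Tap2, taken from a list of 10 symbols. A gene was kept where the array annotation ties a probe set to it alone, which held for 9 of the 10, each with 1 probe set, out of 19937 genes in all. H2-DMb1 shares its only probe set with H2-DMb2 and was therefore not measured on its own. Levels come from 6 Affymetrix Mouse Gene 1.0 ST arrays of RNA from cultured granulocytes of C57BL/6J mice, 3 arrays labelled caffeine+ and 3 labelled caffeine-. Per the labels' protocols, 15 mM caffeine was given for 4 hours and removed with 2 washes. The caffeine+ cells then had 2 µg/ml actinomycin D, a blocker of transcription, together with caffeine for a further 4 hours, and the caffeine- cells had actinomycin D alone for those 4 hours. Both groups thus went through the first caffeine step in this reading, although the caffeine- samples carry a label of no caffeine treatment, and both had the transcription block. No array was taken before the block, so lower and higher below compare the groups and do not show a change over time. The series was designed to find transcripts that accumulate when nonsense-mediated decay, the pathway that removes mRNAs with premature stop codons, is inhibited by caffeine. The labels give no age or sex of the mice, and no label says whether replicate arrays stand for different mice or dishes, so each p-value is set against a spread between arrays that could be technical.

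MHC class II molecules show peptides from endosomes to CD4 T cells and are characteristic of B cells, dendritic cells and macrophages. An alpha and a beta chain pair in the endoplasmic reticulum around the invariant chain, proteases trim that chain in endosomes, and the H2-DM editor exchanges the remaining fragment for peptide. Class I molecules, found on nearly all nucleated cells, pair a heavy chain with beta-2-microglobulin and carry peptides that the proteasome makes in the cytosol and the TAP transporter brings into the endoplasmic reticulum.

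Of the 9 measured genes, 7 were lower in the caffeine+ cells, none was higher, and H2-Eb1 and Ciita did not pass the test (limma, Benjamini-Hochberg adjusted p under 0.05 over all genes). Across all 19937 genes the same test called 21.7% lower and 16.2% higher. Among the 9968 genes above the median level, where 8 of the 9 lie, a fit of those genes alone called 35.1% lower and 30.8% higher. The same shares are the background for the counts of the other lists below. The median log2 difference of the 9 genes, caffeine+ minus caffeine-, was -0.40, against -0.04 over all genes, and their differences ran from -0.72 to -0.11. In the same 7 genes every caffeine+ array lay below every caffeine- array, an arrangement found in 26.3% of all genes, with the opposite one in 19.5%. Since the RNA is from a bulk culture, fewer cells that express a gene and less of its RNA per cell cannot be told apart.

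**Figure D1:**
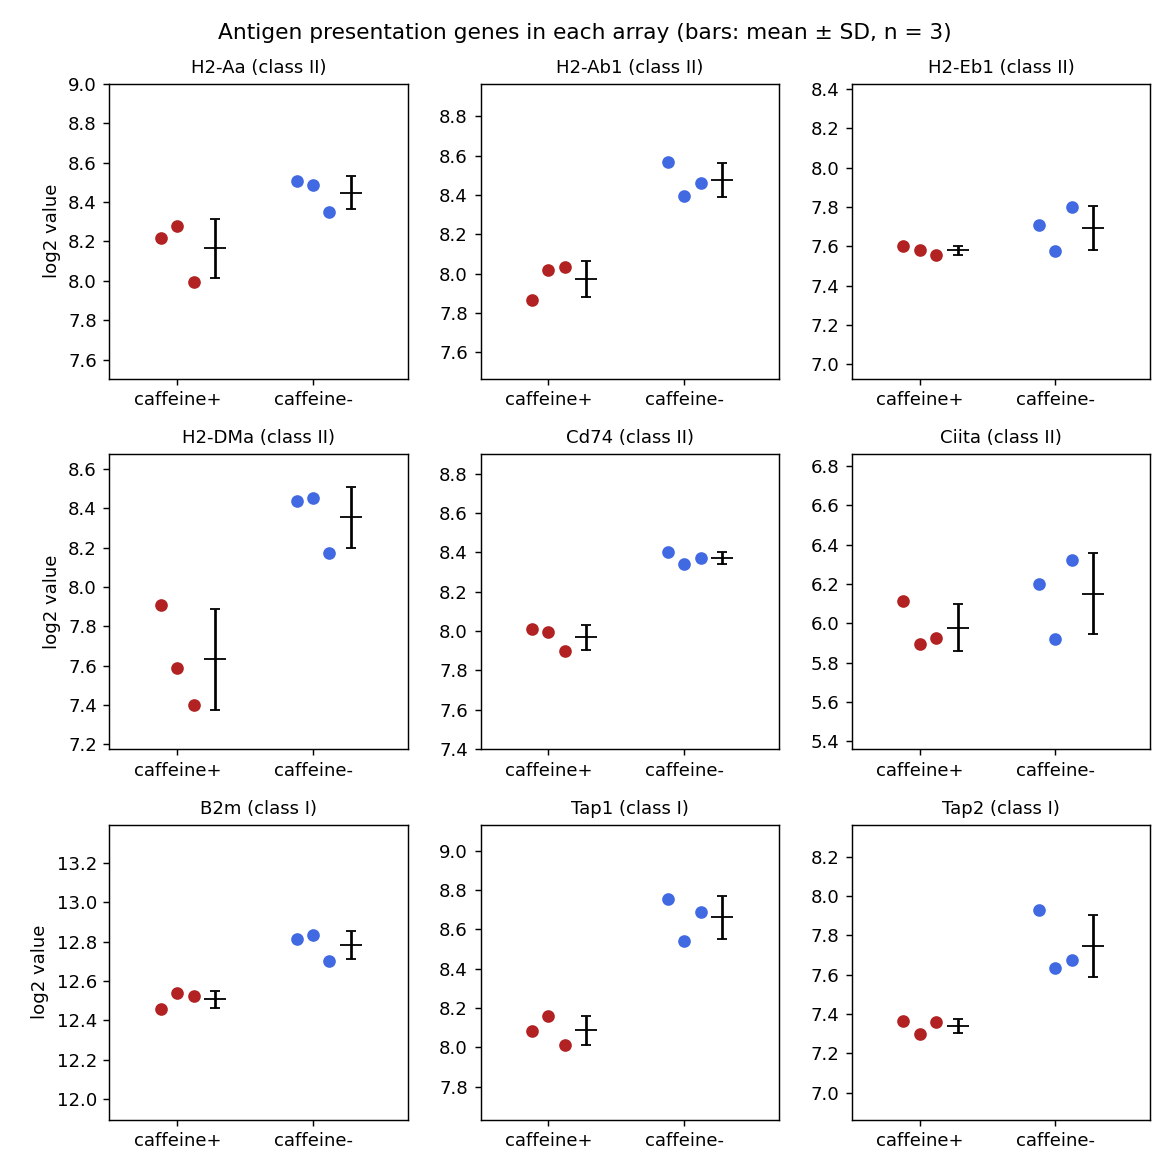
Log2 value (y axis, each panel spanning the same height) of 9 antigen presentation genes in the 3 caffeine+ arrays (red, left) and the 3 caffeine- arrays (blue, right), with the mean ± SD of each group in black. The groups are apart in 7 panels and overlap for H2-Eb1 and Ciita.

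Across the whole series, array medians lay between 6.49 and 6.60 on the log2 scale over 34760 probe sets, and arrays correlated across probe sets at r = 0.986 to 0.992 within groups and at 0.959 to 0.965 between groups. Granulocyte markers had mean log2 values of up to 12.78, and 15 of 16 of them were lower in the caffeine+ cells, so lower values were not limited to antigen presentation genes. Values of different probe sets are not compared as amounts of RNA, because probes differ in how strongly they bind.

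Among the chains of the class II molecule itself, H2-Ab1 had the clearest difference. This gene encodes the I-A beta chain. Its log2 values were 7.86, 8.02 and 8.03 in the caffeine+ arrays, against 8.57, 8.40 and 8.46 in the caffeine- arrays. The highest caffeine+ array was 0.36 below the lowest caffeine- array. The level in caffeine+ cells was 70.5% of that in caffeine- cells (log2 difference -0.50 ± 0.08 SE, 95% confidence interval -0.68 to -0.33, limma adjusted p = 0.00013, n = 3 arrays per group).

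H2-Aa, which encodes the I-A alpha chain that pairs with it, differed by less. The caffeine+ arrays read 8.22, 8.28 and 7.996, against 8.51, 8.49 and 8.35 in the caffeine- arrays. All 3 caffeine+ arrays were below the others, but the gap between the groups was only 0.07. The log2 difference was -0.28 ± 0.09 (limma adjusted p = 0.019), a level of 82.1%, and the call was lost when each array was centred on its median (adjusted p = 0.095). It was also lost without caffeine+ array 3 (adjusted p = 0.12), without caffeine- array 1 (0.062) and without caffeine- array 2 (0.063), so its adjusted p ran from 0.0069 to 0.12 over 17 alternative settings.

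H2-Eb1, the I-E beta chain gene, did not pass. Its values were 7.60, 7.58 and 7.56 in the caffeine+ arrays and 7.71, 7.58 and 7.80 in the caffeine- arrays. The caffeine+ arrays sat close together and caffeine- array 2 fell among them, so the groups overlap. The log2 difference of -0.11 ± 0.09 has a 95% confidence interval of -0.30 to 0.07 (limma adjusted p = 0.38), which leaves room for a difference as large as that of H2-Aa. H2-Ea, the I-E alpha gene and a transcribed pseudogene in the C57BL/6J reference, differed by 0.04 ± 0.10 and H2-Eb2 by 0.01 ± 0.14, and neither passed.

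The upstream sequences of H2-Aa and H2-Eb1 are shown because both class II chain genes hold the same arrangement of class II promoter letters. Their calls differ, but whether their log2 differences differ from each other was not tested. Class II promoters are known for an X box, bound by the RFX complex, followed by a Y box, an inverted CCAAT sequence bound by NF-Y, and CIITA acts on the proteins assembled there. The 250 bases before the transcript start are given 5′ to 3′ from RefSeq (GRCm38.p6), H2-Aa from chr17:34287824-34288073 on the minus strand and H2-Eb1 from chr17:34305617-34305866 on the plus strand. Capitals mark, on either strand, the X box letters GNAACT, the CCAAT box letters ATTGG and the core letters TGACG of a cyclic AMP response element (CRE).
H2-Aa: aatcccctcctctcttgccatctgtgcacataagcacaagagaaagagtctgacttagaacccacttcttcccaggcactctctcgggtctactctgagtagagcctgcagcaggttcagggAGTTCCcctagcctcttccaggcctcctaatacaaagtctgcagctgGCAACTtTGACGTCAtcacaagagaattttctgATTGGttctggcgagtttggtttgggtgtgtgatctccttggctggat
H2-Eb1: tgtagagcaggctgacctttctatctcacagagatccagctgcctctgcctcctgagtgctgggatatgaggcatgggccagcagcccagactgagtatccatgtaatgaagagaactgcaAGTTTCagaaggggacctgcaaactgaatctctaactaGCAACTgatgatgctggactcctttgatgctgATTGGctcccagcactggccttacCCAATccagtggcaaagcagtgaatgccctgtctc
In H2-Aa the X box letters begin 81 bases and the CCAAT letters 48 bases before the start, a spacing of 33 bases, with overlapping TGACG letters on both strands between them. In H2-Eb1 the spacing is 32 bases, from 91 to 59 bases before the start, and the window holds no TGACG. H2-DMb1, the editor chain gene without a probe set of its own, has the pair at a spacing of 33 bases.

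Alone, the letters are common. Of 32851 upstream windows of the same length in RefSeq, 37.3% hold GNAACT, 33.8% hold ATTGG and 17.8% hold TGACG. The pair on one strand, with ATTGG beginning 20 to 35 bases after GNAACT, is found in 0.654% of them. The letters and the spacing window were chosen after these promoters had been read, so the match is a description of the sequences. RefSeq upstream entries were matched for 6 of the 10 listed genes, and those of H2-Ab1, Cd74, Ciita and Tap2 are not shown. Neither of the 2 entries of H2-DMa holds the pair.

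**Figure D2:**
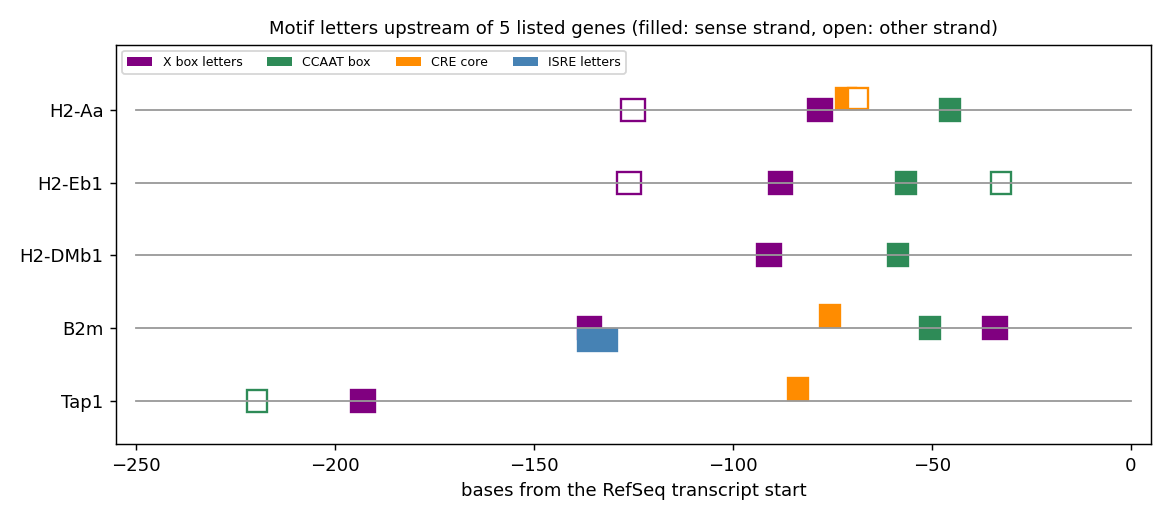
Positions of searched letters in the 250 bases before the RefSeq start (x axis, bases from the start) of 5 listed genes, 1 row per gene, filled on the sense strand and open on the other. X box letters followed by the CCAAT box stand at spacings of 33, 32 and 33 bases in H2-Aa, H2-Eb1 and H2-DMb1.

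Among the genes that act on the class II molecule, H2-DMa, Cd74 and H2-Ob were lower. H2-DMa, the alpha chain of the peptide editor, had the largest difference of the 9 measured genes. Its log2 values were 7.91, 7.59 and 7.40 in the caffeine+ arrays, against 8.44, 8.45 and 8.17 in the caffeine- arrays. The groups were 0.27 apart, although H2-DMa also varied most among the caffeine+ arrays (SD 0.26). In caffeine+ cells its level was 60.6% of that in caffeine- cells (log2 difference -0.72 ± 0.12, 95% confidence interval -0.97 to -0.47, limma adjusted p = 0.00011). Only 6.64% of all genes had a lower difference.

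Cd74 encodes the invariant chain. It read 8.01, 7.996 and 7.90 in the caffeine+ arrays, against 8.40, 8.34 and 8.37 in the caffeine- arrays. Each group was tight and the gap between them was 0.33. The log2 difference was -0.40 ± 0.08 (limma adjusted p = 0.0005), a level of 75.5%. H2-Ob, the beta chain of the H2-O inhibitor of the editor, differed by the same -0.40 ± 0.08 and passed, while its partner H2-Oa differed by -0.01 ± 0.10 and did not.

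Ciita, the transactivator on which class II transcription depends, did not pass. The caffeine+ arrays read 6.11, 5.90 and 5.92, and the caffeine- arrays 6.20, 5.92 and 6.32. Array 2 of the caffeine- group was level with the lower caffeine+ arrays, so the groups overlap. Its log2 difference was -0.17 ± 0.12 with a 95% confidence interval of -0.43 to 0.08 (limma adjusted p = 0.32, and 0.079 to 0.70 over 16 alternatives). The interval includes both no difference and a difference like that of Cd74.

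Transcripts of the factors that sit with CIITA on class II promoters went both ways. All 3 NF-Y subunit genes were higher in caffeine+ cells. Nfyb read 9.80, 9.78 and 9.72 in the caffeine+ arrays, against 8.40, 8.64 and 8.34 in the caffeine- arrays, which is 2.47-fold higher (log2 difference 1.31 ± 0.08, limma adjusted p = 4.8e-09). Nfya and Nfyc were 1.85-fold and 1.58-fold higher. Of the RFX complex, Rfxap was 1.79-fold higher (8.55, 8.68 and 8.59 in the caffeine+ arrays against 7.82, 7.74 and 7.75 in the caffeine- arrays). Rfx5, the subunit that binds DNA, was 1.55-fold lower (5.90, 6.22 and 6.14 in the caffeine+ arrays against 6.74, 6.89 and 6.53 in the caffeine- arrays). Counting Ciita, 4 of 8 such genes were higher, 1 was lower and 3 did not pass, with a median log2 difference of 0.31. After quantile normalization 2 of them were lower. In the fit of genes above the median level none was, but Rfx5 lies below that level and was not in it. Rfx5 passed in all 16 alternatives that tested it.

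Genes of endosomal processing and of class II traffic were mostly lower, with 7 of 11 lower, 2 higher and a median log2 difference of -0.63. Cathepsin S, which trims the invariant chain, is encoded by Ctss. It read 10.47, 10.48 and 10.44 in the caffeine+ arrays, against 11.44, 11.49 and 11.39 in the caffeine- arrays, a level of 50.9% (log2 difference -0.98 ± 0.05, limma adjusted p = 7.7e-10). Ifi30, a thiol reductase that opens disulphide bonds of antigens, was at 46.7% of its caffeine- level. The protease gene Ctsb was at 54.2% and the cathepsin inhibitor gene Cst3 at 58.5%. Ctsd, Ctse and Lgmn, encoding other endosomal proteases, were also lower, while the protease gene Ctsl differed by -0.01 ± 0.06 and did not pass. The higher genes were Cd83 (1.66-fold), whose protein keeps class II at the surface by opposing its ubiquitination, and Marchf8 (1.32-fold). Marchf8 is a ubiquitin ligase gene of the family that removes class II from the surface. Marchf1, of the same family, differed by -0.17 ± 0.11 and did not pass.

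On the class I side all 3 listed genes were lower in the caffeine+ cells. B2m, the light chain gene, had the smallest error of the 9. Its log2 values were 12.46, 12.54 and 12.52 in the caffeine+ arrays, against 12.81, 12.83 and 12.70 in the caffeine- arrays. The groups were 0.17 apart. The level in caffeine+ cells was 82.6% (log2 difference -0.28 ± 0.04, 95% confidence interval -0.37 to -0.18, limma adjusted p = 8.5e-05). After quantile normalization the log2 difference was -0.15 and still passed (limma adjusted p = 0.0022).

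Tap1 and Tap2 encode the subunits of the peptide transporter. Tap1 read 8.08, 8.16 and 8.01 in the caffeine+ arrays, against 8.75, 8.54 and 8.69 in the caffeine- arrays. Tap2 read 7.36, 7.30 and 7.36 in the caffeine+ arrays, against 7.93, 7.63 and 7.67 in the caffeine- arrays. Neither gene's groups overlap, with gaps of 0.38 and 0.27. Tap1 was at 67.1% of its caffeine- level (log2 difference -0.57 ± 0.08, limma adjusted p = 3.4e-05). For Tap2 the level was 75.5% (log2 difference -0.41 ± 0.10, limma adjusted p = 0.0026).

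The upstream windows of B2m and Tap1 are shown beside those of the class II genes because class I genes are known for a related promoter module and for interferon response elements. They lie at chr2:122147437-122147686 and chr17:34187306-34187555, both on the plus strand (RefSeq, GRCm38.p6). Capitals mark the same letters as above and letters of the interferon-stimulated response element (ISRE), searched as a pair of GAAA blocks with NN between them.
B2m: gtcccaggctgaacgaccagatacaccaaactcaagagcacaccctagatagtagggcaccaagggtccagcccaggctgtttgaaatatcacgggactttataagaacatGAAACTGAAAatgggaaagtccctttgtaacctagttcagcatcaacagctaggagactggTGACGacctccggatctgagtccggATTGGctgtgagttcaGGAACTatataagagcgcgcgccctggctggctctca
Tap1: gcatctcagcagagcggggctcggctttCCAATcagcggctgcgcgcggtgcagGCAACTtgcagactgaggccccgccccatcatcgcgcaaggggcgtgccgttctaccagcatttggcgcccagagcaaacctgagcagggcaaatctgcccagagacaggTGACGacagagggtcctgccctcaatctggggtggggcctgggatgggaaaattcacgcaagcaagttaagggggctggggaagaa
B2m holds TGACG 78 bases and ATTGG 53 bases before the start, and ISRE letters at 139 bases, which overlap a GNAACT. Another GNAACT of B2m begins at 37 bases. Tap1 holds TGACG at 86 bases, GNAACT at 196 bases and ATTGG letters on the other strand at 222 bases. Neither window has the GNAACT and ATTGG pair at the class II spacing, and the ISRE letters occur in 2.98% of all windows.

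Other genes of the class I loading pathway moved the same way as Tap1 and Tap2. All 9 measured genes of transport and loading were lower, with a median log2 difference of -0.41, although the call of Tapbp, the tapasin gene, was lost without caffeine+ array 2 (adjusted p = 0.057). Calr, encoding the chaperone calreticulin, was at 66.0% (11.11, 11.09 and 11.00 in the caffeine+ arrays against 11.67, 11.74 and 11.58 in the caffeine- arrays, limma adjusted p = 2.3e-07). Erap1, the peptide-trimming aminopeptidase gene, was at 57.0%, and Pdia3, a disulphide isomerase gene of the loading complex, at 76.8%. Of 5 immunoproteasome and activator genes 4 were lower, with a median of -0.81. Psmb9 read 8.45, 8.40 and 8.31 in the caffeine+ arrays, against 9.32, 9.31 and 9.34 in the caffeine- arrays, a level of 52.2% (limma adjusted p = 3.7e-08). Psme1 was at 52.6%, Psmb8 at 57.2% and Psme2 at 66.8% of their caffeine- levels, while Psmb10 differed by -0.15 ± 0.08 and did not pass.

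Class I heavy chains could be followed only in part. Of 21 listed heavy chain and related genes 11 were measured on their own, since 7, among them H2-K1 and H2-D1, appear only in probe sets annotated to several genes. Besides B2m, only Cd1d1, which encodes a lipid-presenting relative of class I, passed, at 71.1% of its caffeine- level (6.32, 6.99 and 6.70 in the caffeine+ arrays against 7.32, 7.15 and 7.03 in the caffeine- arrays). Its groups were 0.03 apart, and it no longer passed with quantile-normalized values (adjusted p = 0.071) or without caffeine+ array 1 (log2 difference -0.31 in place of -0.49, adjusted p = 0.078) or caffeine- array 1 (0.060). The count of lower genes on this list was 2, and between 1 and 4 over the alternatives.

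**Figure D3:**
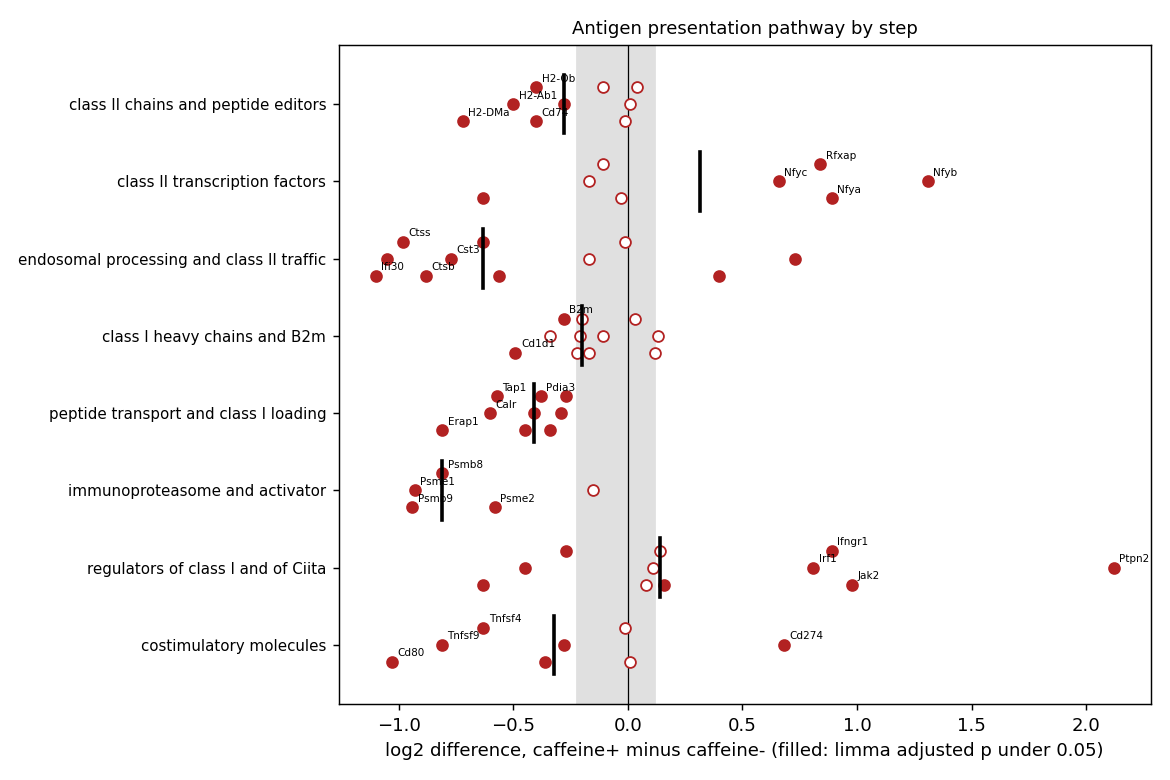
Log2 difference (x axis, caffeine+ minus caffeine-) of every measured gene in 8 lists of the antigen presentation pathway (rows), filled where the limma adjusted p was under 0.05. Black lines are list medians, from -0.81 for the immunoproteasome to 0.31 for class II transcription factors, and the grey band spans the 25th to 75th percentile of all genes (-0.22 to 0.12).

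Several of these genes are neighbours. In the RefSeq order of chromosome 17, 14 genes run from H2-DMa to H2-Ea, and 11 of them were measured alone. Of these, 8 were lower and none was higher. Psmb9 and Psmb8, which flank Tap1, had log2 differences of -0.94 and -0.81, larger than that of any of the 9 genes described here. The run of lower genes goes from H2-DMa through Psmb9, Tap1, Psmb8, Tap2, H2-Ob and H2-Ab1 to H2-Aa, and the 3 measured genes after it, H2-Eb1, H2-Eb2 and H2-Ea, did not pass. B2m, Ciita and Cd74 lie on other chromosomes. The window was set to begin at H2-DMa, itself a lower gene, so genes before it were not examined as part of the run. H2-Oa, which did not pass, lies outside the window. This grouping was made after the values had been seen.

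**Figure D4:**
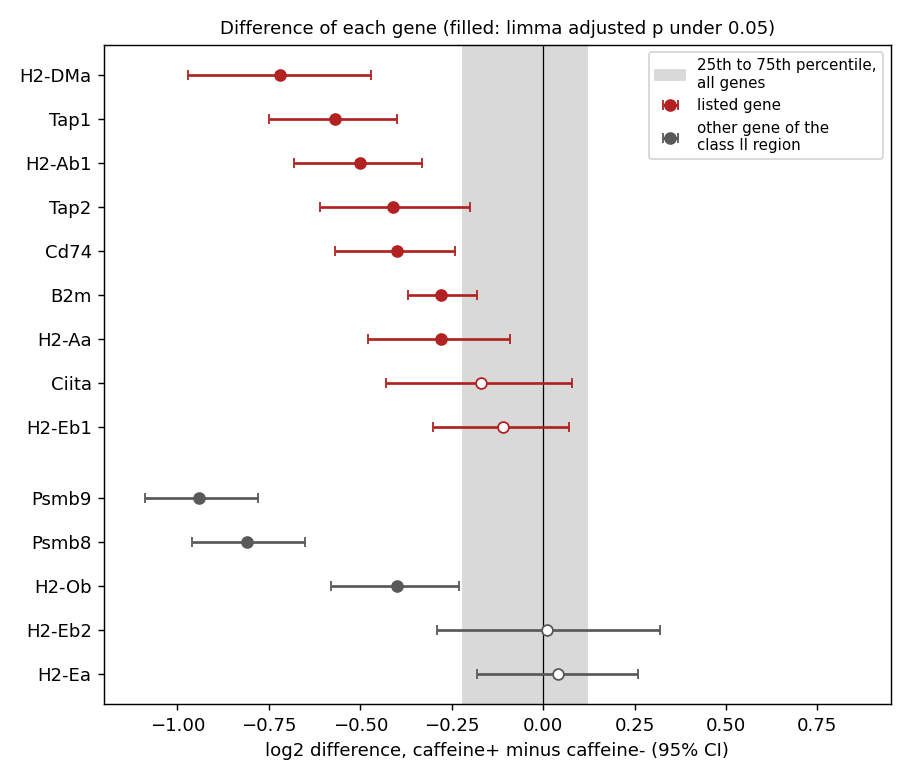
Log2 difference (x axis, caffeine+ minus caffeine-) with its 95% confidence interval for the 9 listed genes (red, most negative at the top) and the 5 other measured genes from H2-DMa to H2-Ea (grey), n = 3 arrays per group. Filled points passed the limma test, H2-Eb1, Ciita, H2-Eb2 and H2-Ea did not, and the band spans the 25th to 75th percentile of all genes.

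Ratios between listed genes within each array are given as a description, for pairs chosen after their values had been seen. The log2 ratio of H2-Ab1 to H2-Eb1 was 0.26, 0.43 and 0.48 in the caffeine+ arrays, against 0.86, 0.82 and 0.67 in the caffeine- arrays. The log2 ratio of Tap1 to B2m was -4.37, -4.38 and -4.51 in the caffeine+ arrays, against -4.06, -4.29 and -4.01 in the caffeine- arrays. The means differed by -0.39 and -0.30 for these pairs, and the groups do not overlap in either. The means differed by -0.22 for H2-Ab1 to H2-Aa, -0.32 for H2-DMa to Cd74 and -0.17 for Tap1 to Tap2, where the groups overlap. None of these differences was tested.

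Some markers of cells that carry class II were lower in the caffeine+ cells and others did not pass. Of 11 measured B cell markers 4 were lower and none higher, of 12 dendritic cell markers 8 were lower and none higher, and of 10 monocyte and macrophage markers 7 were lower and 1 higher. Over all genes 21.7% were lower and 16.2% higher. The fit of genes above the median level held only part of these lists, and 2 B cell and 5 dendritic cell markers were lower in it. Of the B cell list it held only Cd79b and Vpreb1. Of the dendritic cell list it held only Flt3, Siglech, Clec9a, Bst2, Klrd1 and Ccr7, and Ccr7 did not pass. In that fit 35.1% of all genes were lower. Cr2, Fcer2a, Itgax, Clec10a and Cd209a were not in that fit, and passed in every alternative that tested them. Summed on the linear scale, the B cell list was between 696 and 774 in the caffeine+ arrays and between 1063 and 1180 in the caffeine- arrays. The dendritic cell list was between 1380 and 1436 in the caffeine+ arrays, against 1800 to 1906 in the caffeine- arrays. For the monocyte and macrophage list the sums were 1609 to 1682 in the caffeine+ arrays and 2700 to 3081 in the caffeine- arrays. The granulocyte list summed to between 20404 and 20941 in the caffeine+ arrays, against 29421 to 31024 in the caffeine- arrays, and the T and NK cell list to between 406 and 493 in the caffeine+ arrays, against 453 to 522 in the caffeine- arrays. The T and NK cell sums overlap between the groups and the other 4 do not, the granulocyte sum in caffeine+ arrays being 68.7% of that in caffeine- arrays. A sum is weighted towards the brightest probe sets. Without Cd79b, a setting chosen after the values had been seen, the B cell sum was 618 to 672 in the caffeine+ arrays, against 758 to 867 in the caffeine- arrays. No marker is listed at 0, and log2 means in the lists went down to 4.25, with no detection call used here to say which are absent.

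Within the B cell list the defining genes did not move together. Cd79b, encoding a chain of the antigen receptor, was 3.29-fold lower (6.67, 6.28 and 6.67 in the caffeine+ arrays against 8.29, 8.25 and 8.23 in the caffeine- arrays), and the complement receptor gene Cr2 was 2.43-fold lower. Cd79a, encoding the partner chain of Cd79b, differed by 0.16 ± 0.10, Ms4a1 (CD20) by -0.03 ± 0.10 and Pax5, a B cell transcription factor gene, by 0.09 ± 0.12, none of which passed, although Cd79a was called higher with quantile-normalized values (limma adjusted p = 0.026). Among the dendritic cell markers, Clec10a was 2.37-fold and Siglech 1.59-fold lower, while Zbtb46, a transcription factor gene of classical dendritic cells, differed by 0.01 ± 0.13. Among the monocyte markers, Ccr2 was 2.98-fold, Ly86 2.67-fold and Csf1r 1.99-fold lower, Cd14, a co-receptor gene for bacterial lipopolysaccharide, was 1.39-fold higher (limma adjusted p = 0.0023), and C1qa and Ms4a7 did not pass, with log2 differences of -0.15 ± 0.10 and -0.14 ± 0.12. The part of these cells in the differences of the class II genes was not tested.

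**Figure D5:**
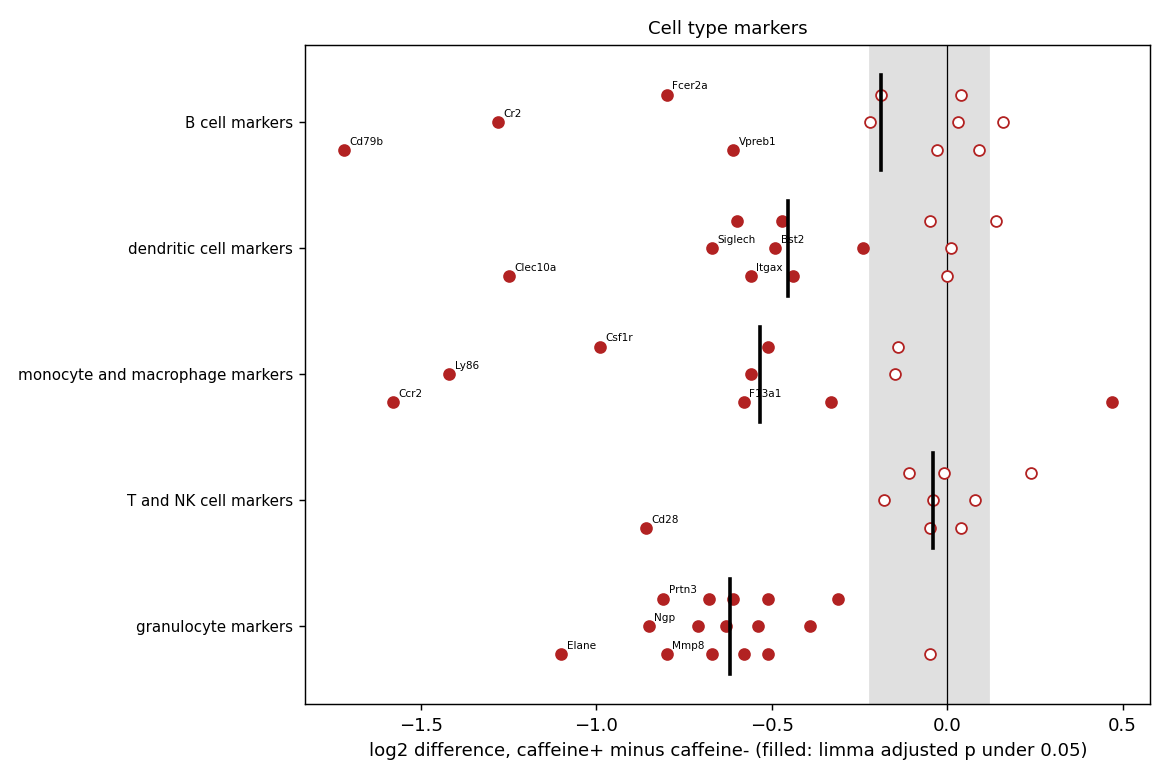
Log2 difference (x axis, caffeine+ minus caffeine-) of every measured gene in 5 lists of cell type markers (rows), filled where the limma adjusted p was under 0.05, with list medians as black lines and the 25th to 75th percentile of all genes as a grey band. Medians are -0.19 for B cells, -0.45 for dendritic cells, -0.53 for monocytes and macrophages, -0.04 for T and NK cells and -0.62 for granulocytes.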

How the data were processed

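Per the labels' protocols, biotinylated cDNA for the arrays was made from 300 ng of Trizol-extracted RNA. The authors deposited 1 value per probe set and array, taken here as log2 values because they run from 1.90 to 13.98. How they were summarized and normalized is not stated in the sources used here. The values are relative and cannot show a change in total mRNA per cell. Of 34760 probe sets, 21640 have 1 gene symbol in the platform annotation, 1321 have several and 11799 are unlisted. A gene was represented by its probe set with the highest mean, giving 19937 genes. All genes were fitted at once with limma 3.58.1 under R 4.3.3 (lmFit, eBayes with an intensity trend, two-sided, Benjamini-Hochberg, threshold 0.05, no filter). The fit was tried on simulated data with 200 changed genes. That is far fewer than were called here, so the trial does not bear on these calls. Replicate numbers 1 to 3 were not taken as pairs, and a fit with the number as a block is given below. Arrays of the same number deviated together at r = -0.028, 0.19 and 0.29, and arrays of different numbers at -0.28 to 0.13. These values do not exclude a pairing. No batch is given. All listed genes were named, with up to 4 called genes of smallest p per list. Others, among them Rfx5, Marchf8, Cd83, Psmb10, Cd79a, Ms4a1, Pax5, Zbtb46 and further endosomal, loading and class II region genes, were chosen after their values were seen. The members and lists were chosen with earlier results of these data known. The number of arrays limits the precision.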

Additional observations from a re-analysis of the deposited data

How the results depend on the processing

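Over 17 alternative settings (other scalings, filters, probe set rules and variance models, the replicate number as a block, and each array left out), H2-Ab1, H2-DMa, Cd74, B2m, Tap1 and Tap2 stayed lower and called in every one, and H2-Eb1 and Ciita stayed lower without passing in each one that tested them. H2-Aa lost its call in 4, where its log2 difference was -0.23 (arrays centred on their medians), -0.20 (without caffeine+ array 3), -0.25 (without caffeine- array 1) and -0.27 (without caffeine- array 2). The count of lower listed genes was 6 or 7 when an array was left out, and 7 with the replicate block, where 3388 genes were higher and 4660 lower overall. Leaving out an array gave 2880 to 3238 higher and 3798 to 4364 lower genes. Over all genes 3703 were higher and 4007 lower after quantile normalization and 3674 higher and 3749 lower after centring, against 3229 and 4325 as reported. The median of all genes was 0.03 after quantile normalization and 0.02 after centring. Direction turned for genes near 0 that never passed. H2-Oa gave 0.09 after quantile normalization and 0.05 after centring, and Ms4a1 gave 0.02 after centring. With 1 array left out, the log2 difference ran from -0.04 to 0.02 for H2-Oa, from -0.10 to 0.20 for H2-Eb2, from -0.01 to 0.07 for H2-Ea and from -0.12 to 0.10 for Zbtb46. Of 442 list counts under these settings 14 moved by over 1.5 times. In the fit of genes above the median level, lower genes such as Rfx5, Cr2, Tnfsf4 and Cd28 were left out by the filter. The cause of the other moves was not tested. No detection calls were used, and dim genes may understate a difference, which was not tested.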

Other observations

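Genes of costimulatory molecules, which give a T cell its second signal beside the MHC complex, also differed between the groups. Of 8 measured genes 5 were lower in the caffeine+ cells and 1 was higher, with a median log2 difference of -0.32. Cd80, a ligand of CD28, was at 49.0% of its caffeine- level (7.65, 7.83 and 7.60 in the caffeine+ arrays against 8.74, 8.74 and 8.68 in the caffeine- arrays, limma adjusted p = 7.7e-08), and the mean of its probe sets differed by -0.48 on the log2 scale in place of -1.03. Tnfsf9 and Tnfsf4, ligand genes of the tumour necrosis factor family, were at 57.1% and 64.5%. Cd274, which encodes the inhibitory ligand PD-L1, was 1.60-fold higher (8.61, 8.82 and 8.64 in the caffeine+ arrays against 7.95, 8.09 and 7.99 in the caffeine- arrays, limma adjusted p = 6.6e-06). With quantile normalization 3 of the 8 genes were lower. The fit limited to genes above the median level, which did not hold Tnfsf4 and Tnfsf9, also gave a count of 3. Both of these genes passed in all 16 alternatives that tested them.

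Regulators of class I and of Ciita moved in both directions, with 5 of 11 higher, 3 lower and a median of 0.14. The interferon pathway genes Jak2, Ifngr1 and Irf1 were 1.97-fold, 1.85-fold and 1.75-fold higher in the caffeine+ cells, while the receptor subunit gene Ifngr2 was 1.55-fold lower. Irf1, a transcription factor gene that acts on class I genes and on Ciita, read 8.79, 8.82 and 8.76 in the caffeine+ arrays against 8.12, 8.01 and 7.81 in the caffeine- arrays. The phosphatase gene Ptpn2, which opposes JAK signalling, was 4.36-fold higher by its brightest probe set, a log2 difference of 2.12, against 1.14 for the mean of its probe sets. Nlrc5, the class I transactivator gene, had 19 probe sets. Its brightest differed by -0.27 ± 0.09 (limma adjusted p = 0.02, and 0.0054 to 0.21 over the alternatives), and the mean of the 19 gave -0.17 and did not pass (adjusted p = 0.21).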
